A study of Mus musculus with 21 samples.

Results

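The myogenic regulatory factors are 4 genes, Myod1, Myf5, Myf6 and Myog, out of 21887 protein-coding genes in the GRCm38.p6 gene table. Each was described by the CUT&RUN peaks that lie within 5 kb of its gene span, in every deposited PSME3 and H3K4me3 list. C2C12 is a line of mouse myoblasts, which fuse into myotubes once serum is withdrawn. CUT&RUN maps a protein on chromatin by sequencing the short fragments that an antibody-guided nuclease cuts free near it. Cycling cells were kept in 20% FBS below confluency and frozen unfixed (native). Day 2 cells were grown to confluency and then kept for 48 h in medium with 2% horse serum. They came in 4 preparations, frozen or fresh, each with native cells and with cells crosslinked by 0.1% formaldehyde (5 min). With each antibody there were 3 biological replicates of cycling cells, 1 library of each day 2 preparation, and a list that the authors called on the 3 cycling replicates together. The labels list no genetic change or other treatment in either stage.

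MYOD1, MYF5, MYF6 (also called MRF4) and myogenin, the product of Myog, are basic helix-loop-helix transcription factors. They bind the E-box motif as dimers with E proteins and can turn on the skeletal muscle programme when placed in other cell types. MYF5 and MYOD1 mark the committed myoblast, myogenin acts as myoblasts leave the cell cycle and differentiate, and MYF6 is best known from differentiated fibres. H3K4me3, trimethylation of lysine on the tail of histone H3, marks the start regions of active genes. PSME3 is a nuclear activator of the proteasome, and these experiments asked where it sits on chromatin before and during differentiation.

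In both stages, H3K4me3 peaks lay over Myod1 and Myf5 and over the lower-coordinate part of Myf6. Myog had no H3K4me3 peak in its window in any of the 3 cycling libraries and had one in all 4 day 2 libraries. PSME3 had a single peak at these genes, a narrow one at the edge of Myod1 in the pooled cycling list alone.

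**Figure D1:**
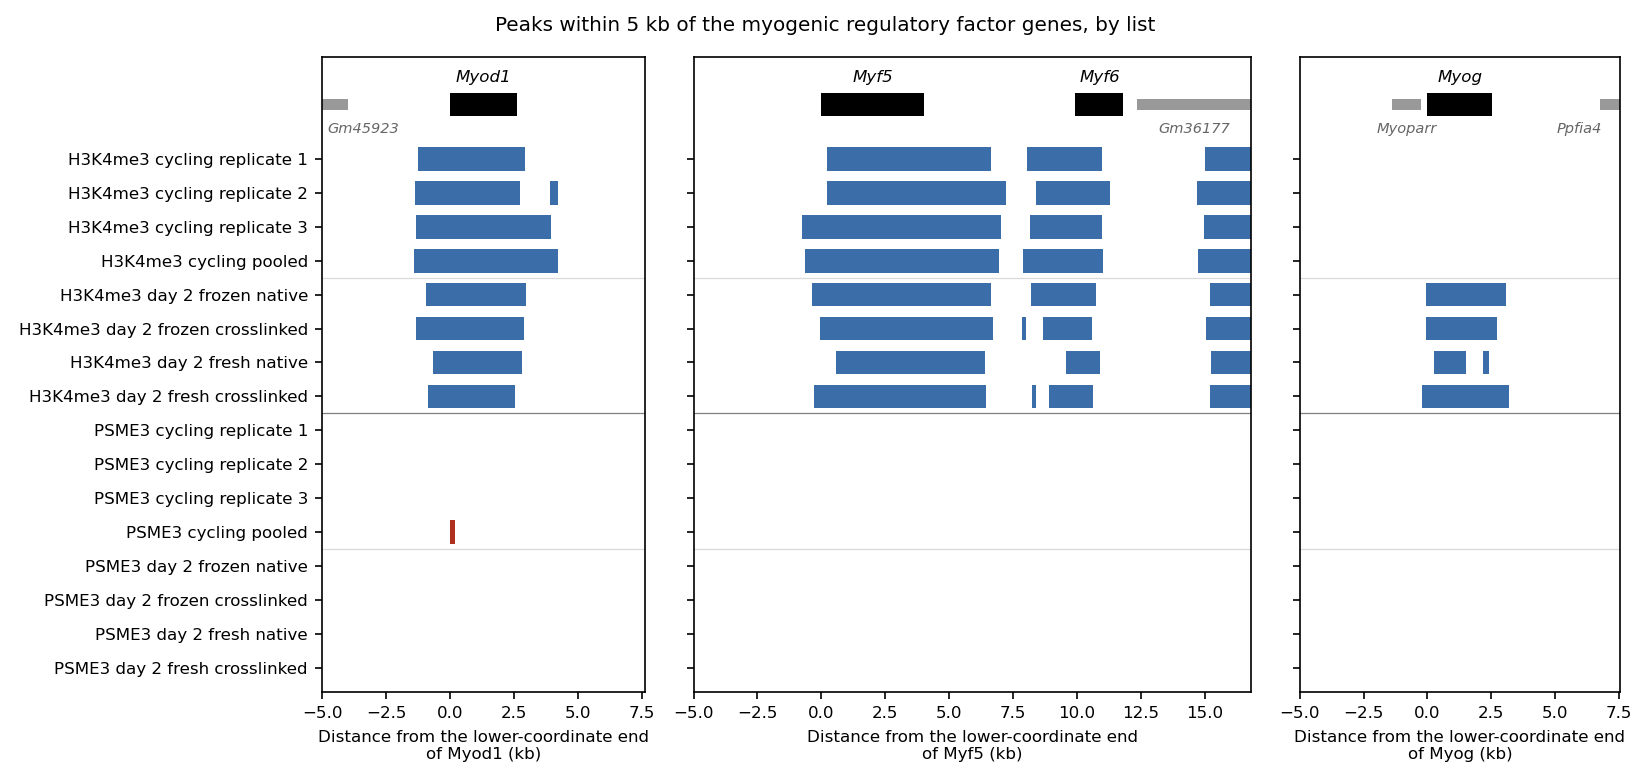
Peaks within 5 kb of the 4 genes, 1 row per list, drawn to scale in kb from the lower-coordinate end of Myod1, Myf5 or Myog. Black boxes are the 4 genes, grey boxes are other annotated genes, blue bars are H3K4me3 peaks and the red bar is the only PSME3 peak; bars end at the edge of the window. The Myog panel holds H3K4me3 peaks in the 4 day 2 rows only.

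The promoters of Myog and Myf5, the 2 of the 4 genes with an entry in the promoter table, are printed below. The first had no H3K4me3 peak before differentiation, and the second lay wholly inside an H3K4me3 peak in every H3K4me3 list. Both sequences are from RefSeq on build GRCm38.p6, run 5′ to 3′ on the gene's own strand, and hold 250 bases before the annotated start and 50 from it onwards. Myog is on the plus strand (chr1:134289754-134290053) and Myf5 on the minus strand (chr10:107486085-107486384). Capitals mark E-boxes (CANNTG, the same on both strands) and the TATA-box letters TATAAA, searched on the gene's strand.
Myog: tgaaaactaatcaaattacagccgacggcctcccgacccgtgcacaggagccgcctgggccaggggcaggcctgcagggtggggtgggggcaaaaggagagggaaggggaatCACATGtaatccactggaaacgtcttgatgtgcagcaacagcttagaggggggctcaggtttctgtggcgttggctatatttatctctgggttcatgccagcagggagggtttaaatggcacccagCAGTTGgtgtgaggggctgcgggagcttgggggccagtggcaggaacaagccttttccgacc
Myf5: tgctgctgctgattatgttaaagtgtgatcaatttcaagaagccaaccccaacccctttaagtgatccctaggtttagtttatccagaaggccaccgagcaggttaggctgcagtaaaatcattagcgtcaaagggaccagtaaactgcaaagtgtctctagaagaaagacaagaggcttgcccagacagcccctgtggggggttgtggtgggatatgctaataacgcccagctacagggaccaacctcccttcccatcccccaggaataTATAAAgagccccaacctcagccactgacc
The Myog window held 2 E-boxes, CACATG at positions -138 to -133 and CAGTTG at -12 to -7 from the annotated start, and no TATAAA. The Myf5 window held no E-box and 1 TATAAA, which begins 20 bases past the annotated start. This Myf5 start lies inside the gene span used here, not at its end, so the annotations of Myf5 differ. An E-box is found in 72.3% of the 32851 promoters in the table and TATAAA in 13.6%, so neither motif is rare in windows of this length. G and C made up 58.3% of the Myog window and 49.7% of the Myf5 window, beside a median of 52.7% over all promoters. The Myog window held 9 CpG and the Myf5 window 3, beside a median of 7.

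Myog (chr1:134290004-134292548) encodes myogenin. The lncRNA gene Myoparr lies 243 bp below its lower-coordinate end, and the protein-coding gene Ppfia4 begins 4235 bp above its upper end. The covered length, meaning the bp of the window that lay under H3K4me3 peaks, was 0 bp in all 3 cycling replicates and in the pooled list. At day 2 it was 3127 bp in the frozen native library, 2773 bp in the frozen crosslinked library, 1491 bp in the fresh native library and 3433 bp in the fresh crosslinked library. The stages did not overlap.

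The day 2 peaks lay over the Myog gene rather than over its upstream region. In the frozen native library the peak began 55 bp upstream of the annotated start and ended 3071 bp downstream of it (chr1:134289949-134293075). The frozen crosslinked peak began within 1 bp of the same place and reached 2718 bp downstream. The fresh crosslinked peak began 222 bp upstream and was the widest, at 3433 bp. The fresh native library stood apart from those 3. Its signal was split into a peak of 1261 bp that began 244 bp downstream of the start and another of 230 bp, with q-values of 0.0182 and 0.0161. Of the 300 promoter bases printed above, 105 lay under a peak in the frozen native library, 104 in the frozen crosslinked library, none in the fresh native library and 272 in the fresh crosslinked library. The E-box nearest the start was therefore under the peak in 3 day 2 libraries, and the one farther upstream only in the fresh crosslinked library.

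The mean covered length of Myog was 2706 ± 854 bp at day 2 (SD, n = 4) and 0 bp in cycling cells (n = 3). A two-sided exact permutation test over the 7 libraries gave p = 0.0571, below which 3 against 4 libraries cannot go, and 0.142 after Benjamini-Hochberg adjustment over the 14937 protein-coding genes with an H3K4me3 peak in any library. No gene could pass 0.05 in this design: 0 of 14937 genes (0.0%) had an adjusted or an unadjusted exact p under 0.05. The count of genes whose stages did not overlap is therefore given as a description. All 4 day 2 libraries lay above all 3 cycling libraries for 151 genes, 1.01% of the 14937, and Myog was 1 of them. That share was 2.57% (382 genes) without the day 2 fresh native library and 1.91% (272 genes) without cycling replicate 2, and Myog stayed among them. The difference at Myog was larger than that of 99.8% of genes. With peaks limited to a q-value of at most 0.01, the fresh native peaks dropped out, the stages overlapped and p was 0.229. Peak lists from bulk cells cannot tell a mark in fewer cells from less of the mark per cell, here or below.

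Only 33 genes, 0.221% of the 14937, had no H3K4me3 peak in any cycling library and one in every day 2 library, and by mean day 2 covered length Myog was the 7th of them. The genes ahead of it were Myl1, Myh3, Acta1, Mybph, Lmod2 and Smyd1, named here after their values were seen. The median of the 33 was 1416 bp. The reverse, a peak in every cycling library and in no day 2 library, was found at 207 genes (1.39%) and at none of the 4 factors.

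Beyond the 5 kb window, cycling replicate 2 had a peak of 210 bp that ended 6.7 kb below Myog (chr1:134283103-134283312), with a q-value of 0.0478. The fresh crosslinked day 2 library had one of 264 bp at 7.1 kb, which did not overlap it. The replicate 2 list is the longest H3K4me3 list, with 40999 peaks against 14372 to 20245 in the other 6 libraries, and it still held none at Myog itself. Inside Ppfia4, about 37 kb above Myog, the 4 day 2 libraries had a peak of 3122 to 3718 bp. Cycling replicates 1 and 2 had only 477 and 934 bp there, and replicate 3 none within 50 kb.

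**Figure D2:**
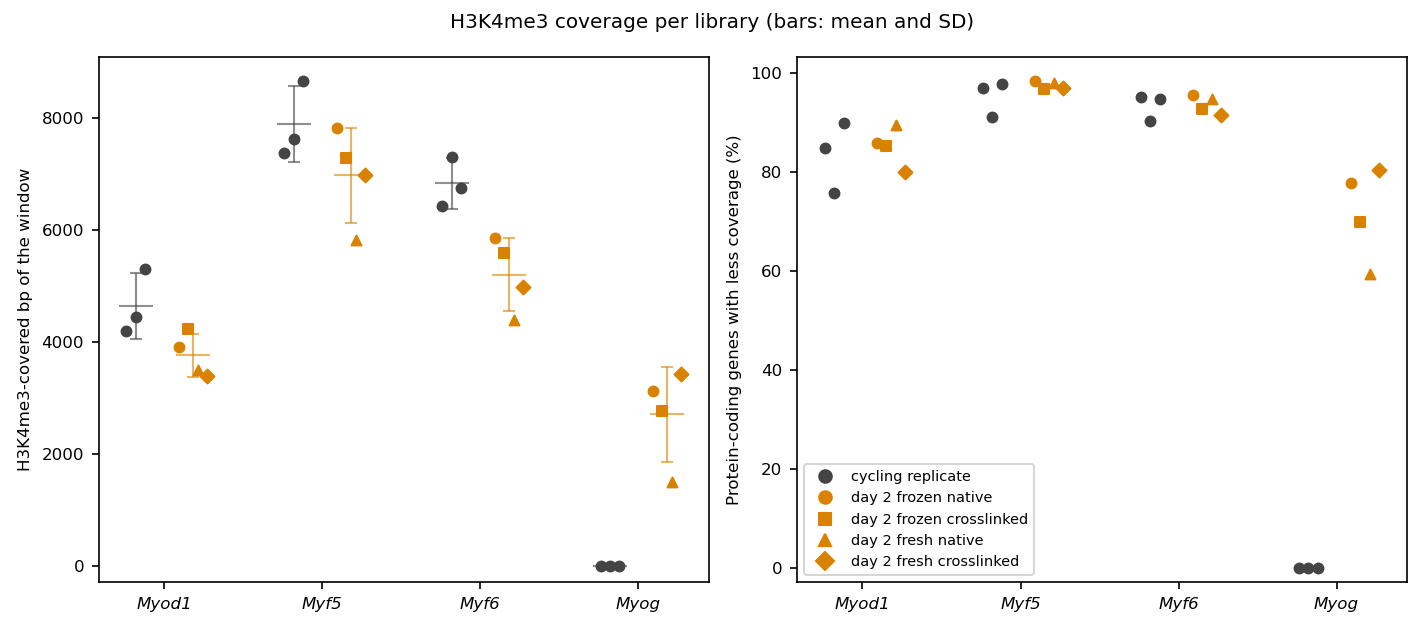
H3K4me3 coverage of the 4 genes in each library: left, bp of the window (gene span and 5 kb on each side) under peaks, with mean and SD bars; right, the percent of protein-coding genes with less coverage in the same library. Grey points are the 3 cycling replicates and orange points the day 2 preparations. Myog is at 0 in cycling cells and between 1491 and 3433 bp at day 2. Myod1, Myf5 and Myf6 have lower day 2 means in bp, but in percentiles the mean of each is slightly higher at day 2.

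Myod1 (chr7:46376474-46379092) encodes the factor that C2C12 myoblasts carry before they differentiate. The lncRNA gene Gm45923 ends 3982 bp below it, and no peak of the window touched that gene. Its H3K4me3 covered length was 4189, 4442 and 5312 bp in cycling replicates 1, 2 and 3. It was 3916 bp in the frozen native day 2 library, 4239 bp in the frozen crosslinked one, 3498 bp in the fresh native one and 3387 bp in the fresh crosslinked one. The frozen crosslinked library lay above the lowest cycling replicate, so the stages overlapped. The means were 4648 ± 589 bp (SD, n = 3) and 3760 ± 392 bp (n = 4), a log2 ratio of -0.31 (exact permutation p = 0.114, Benjamini-Hochberg adjusted p = 0.224). The difference of -888 bp was -556 bp without cycling replicate 3. It was -419 bp with a window of 1 kb, unchanged with 2 and 10 kb, and -1372 bp with 50 kb. On the gene span alone, chosen after seeing the data, it was -22.25 bp.

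One main H3K4me3 peak covered Myod1 in every H3K4me3 list. In the pooled cycling list it was 5621 bp wide (chr7:46375067-46380687), began 1407 bp below the lower-coordinate end of the gene and held the whole gene. In the 7 libraries this peak began between 682 and 1388 bp below the gene. Its upper end varied more. In cycling replicate 3 it reached 1342 bp past the gene, while in replicate 2 it stopped 113 bp past it and a separate peak of 322 bp followed. The fresh crosslinked peak stopped 89 bp short of the upper end of the gene and was the only one that did not span it. In width the peak stood above 89.8% to 96.3% of the peaks in its own library.

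Farther out, cycling replicates 2 and 3 and the pooled list had small H3K4me3 peaks on the lower-coordinate side of Myod1 that no day 2 list held. Replicates 2 and 3 each had a peak 22.8 and 22.9 kb away (506 and 395 bp wide), and the pooled list had one at the same place (chr7:46353152-46353568). Replicate 2 and the pooled list had another near 34.7 and 34.5 kb, and the pooled list alone one at 25.8 kb. Their fold enrichments were 2.19 to 2.58, against 9.9 for the pooled peak over the gene. Their q-values were 0.0288 to 0.0858 in the libraries and 0.016 to 0.0258 in the pooled list, where all lists end under 0.1. Cycling replicate 1 had none there, and the replicate 2 list is the longest H3K4me3 list, with 40999 peaks. None of these small peaks overlapped an annotated gene.

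Myf5 (chr10:107482908-107486927) and Myf6 (chr10:107492848-107494723) are neighbours, and their windows share peaks, so their values are not independent. Across the locus 3 separate H3K4me3 peaks were found in every library. The first covered Myf5, the second the lower-coordinate part of Myf6, and the third lay inside the lncRNA gene Gm36177, which begins 545 bp above Myf6.

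The Myf5 peak was the widest at any of the 4 genes. It was 6411, 7002 and 7811 bp wide in cycling replicates 1, 2 and 3. At day 2 it was 6997 bp in the frozen native library, 6795 bp in the frozen crosslinked, 5822 bp in the fresh native and 6742 bp in the fresh crosslinked. The widths of the stages overlapped. In each library it was wider than 98.5% to 99.2% of all H3K4me3 peaks. It reached 3180 to 3998 bp upstream of the annotated Myf5 start and 2641 to 4000 bp downstream. The 300 promoter bases therefore lay wholly inside it in all H3K4me3 lists. The annotated start (chr10:107486134) lies inside the gene span, whose upper end is at 107486927. In the libraries the peak ended 2387 to 3205 bp past that upper end.

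The peak at Myf6 was narrower and differed more between stages. It was 2919, 2912 and 2820 bp wide in cycling replicates 1, 2 and 3. It was 2547 bp in the frozen native day 2 library, 1916 bp in the frozen crosslinked, 1341 bp in the fresh native and 1700 bp in the fresh crosslinked. All day 2 widths lay below all cycling widths, and the means were 2884 ± 55.2 bp (SD, n = 3) and 1876 ± 506 bp (n = 4). In the fresh native library the peak had a q-value of 0.00369, and it began 372 bp below the gene, against 1019 to 1893 bp in the other 6 libraries. In each library the peak ended inside Myf6, 517 to 1243 bp short of its upper end. The strand of Myf6 was not analysed, so whether its start lay under the peak was not determined. The 2 crosslinked day 2 libraries each had a small separate peak, of 133 and 152 bp on the side towards Myf5.

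The gap between the Myf5 and Myf6 peaks was 1128 to 1414 bp in the cycling replicates and 1556 to 3161 bp at day 2, not counting those small peaks. The peak in Gm36177 was 2214 to 2520 bp wide in cycling cells and 1659 to 2026 bp at day 2, again without overlap. For the widest peak of a window, all cycling libraries lay above all day 2 libraries at 37.8% of genes with a peak, so narrower day 2 peaks are frequent and these widths are not adjusted for it.

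Summed over its window, Myf6 had 6428, 7318 and 6764 bp under H3K4me3 peaks in cycling replicates 1 to 3. At day 2 it had 5862 bp (frozen native), 5591 bp (frozen crosslinked), 4394 bp (fresh native) and 4986 bp (fresh crosslinked). The stages did not overlap, and the log2 ratio was -0.39 (exact permutation p = 0.0571, Benjamini-Hochberg adjusted p = 0.142). Of this window, 1467 to 2285 bp lay under the Myf5 peak and 1586 to 2121 bp under the Gm36177 peak. The peak at Myf6 itself gave 1341 to 2919 bp. All cycling libraries lay above all day 2 libraries at 5860 genes, 39.2% of the 14937, so this pattern is frequent. The difference at Myf6 (-1628 bp) was lower than at all but 16.3% of genes. It was -532 bp with a window of 1 kb, -958 bp with 2 kb, -1866 bp with 10 kb and -1967 bp with 50 kb. On the gene span alone, chosen after seeing the data, it was -375 bp. The stages did not overlap in any of these. For the Myf5 window the values were 7384, 7635 and 8666 bp in cycling cells and 7834, 7291, 5822 and 6993 bp at day 2 (frozen native, frozen crosslinked, fresh native, fresh crosslinked). They overlapped, with a log2 ratio of -0.18 (exact permutation p = 0.229, adjusted p = 0.361). The difference of -910 bp was -524 bp without cycling replicate 3 and -522 bp without day 2 fresh native. It was -73.4 bp with windows of 1 and 2 kb (exact permutation p = 0.857 in each), -1422 bp with 10 kb and -1967 bp with 50 kb. Against the frozen native day 2 library alone it was -61 bp.

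The median difference over all 14937 genes was -654 bp, so covered lengths were lower at day 2 for most genes, and that shift touches the values of the 3 genes marked in both stages. Once the covered length was divided by the median of its library, the mean difference turned slightly positive at Myod1 (0.0047 library medians) and Myf5 (0.234) and stayed negative at Myf6 (-0.122), where the stages then overlapped (exact permutation p = 0.343). As a percentile within the library it was positive at all 3 (1.74, 2.27 and 0.199 percentile points), and the stages overlapped at Myf6 here too. Myog stayed higher in all day 2 libraries in both, by 1.06 library medians and 53.5 percentile points, a pattern found at 7.37% and 13.9% of genes on these scales.

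**Figure D3:**
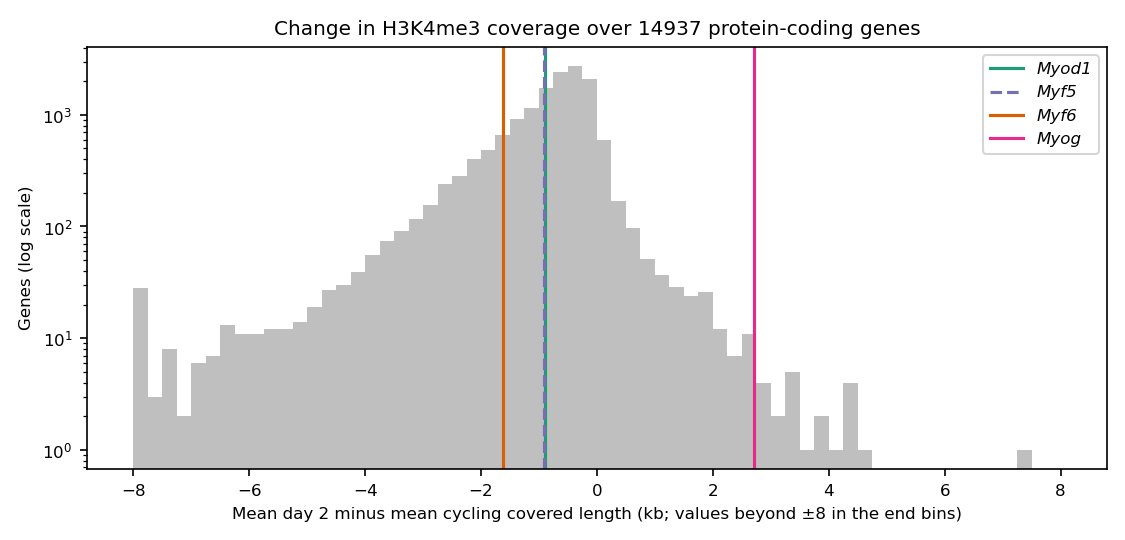
Distribution of the mean day 2 minus mean cycling H3K4me3 covered length, in kb, over 14937 protein-coding genes with a peak in any library; the count axis is logarithmic and values beyond 8 kb are put in the end bins. Vertical lines mark the 4 genes (Myod1 and Myf5 nearly coincide). Myog, at 2.7 kb, lies above 99.8% of genes, and the other 3 lie in the bulk of the distribution on the bp scale.

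Only the frozen native day 2 library was prepared as the cycling cells were, and for the other 3 preparation and stage cannot be told apart. In that library alone, the covered length lay below all cycling replicates at Myod1 (3916 bp) and Myf6 (5862 bp), between them at Myf5 (7834 bp) and above them at Myog (3127 bp). The fresh native library had the lowest value of the 4 preparations at Myf5, Myf6 and Myog, and the fresh crosslinked library at Myod1. The fresh native list is the shortest, with 14372 peaks.

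An H3K4me3 peak in all 7 libraries was found at 55.9% of protein-coding genes, and Myod1, Myf5 and Myf6 were among them. In a single library, 61.5%, 66.2% and 61.8% of genes had a peak in cycling replicates 1, 2 and 3. At day 2 the share was 59.6% and 60.3% in the frozen native and frozen crosslinked libraries and 57.3% and 60.2% in the fresh ones. It was 63.7% in the pooled cycling list. By covered length, Myf5 stood above 91.1% to 98.4% of genes in the 7 libraries, Myf6 above 90.3% to 95.6% and Myod1 above 75.7% to 89.9%. Myog stood above 59.5% to 80.4% at day 2. Myf5 ranked above Myod1 in each library, as did Myf6, whose window takes in parts of the Myf5 and Gm36177 peaks.

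PSME3 had 1 peak within 5 kb of the 4 genes in the 8 lists. It was a peak of 219 bp at Myod1 in the pooled cycling list (chr7:46376454-46376672), with a fold enrichment of 3.0 over background and a q-value of 0.0205. It began 20 bp below the lower-coordinate end of Myod1 and ended 198 bp inside the gene, within the H3K4me3 peak. It was narrow, since only 4.6% of the peaks in that list were narrower. None of the 3 cycling replicate lists held it. That is frequent: of the 5427 genes with a PSME3 peak in the pooled list, 1937 (35.7%) had none in any replicate list.

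In the pooled cycling list 24.8% of protein-coding genes had a PSME3 peak in their window, and 38.5% of those with a pooled H3K4me3 peak did. One of 4 myogenic regulatory factors, and 1 of the 3 with pooled H3K4me3, is close to those shares. In single libraries PSME3 peaks were fewer, at 5.35%, 4.26% and 15.3% of genes in cycling replicates 1, 2 and 3. At day 2 they were at 1.06% (frozen native), 0.397% (frozen crosslinked), 0.0503% (fresh native) and 0.0411% of genes (fresh crosslinked). Against these shares, no peak at any of the 4 genes in a day 2 list is what most genes show.

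The nearest PSME3 peaks in the replicate lists were mostly far off. Cycling replicate 1 had 2 peaks on the lower-coordinate side of Myod1, at 29.3 and 34.9 kb, with q-values of 0.0687 and 0.0906. The farther one (chr7:46341394-46341609) lay inside the small H3K4me3 peak of replicate 2 described above. In replicates 2 and 3 the nearest peak to Myod1 was 1009 and 459.8 kb away. The nearest to Myog in a cycling list was at 113.2 kb, in replicate 3, and the nearest to Myf5 at 359.1 kb, in replicate 1. The 2 fresh day 2 lists, of 23 and 18 peaks, had none on the chromosomes of Myog, Myf5 and Myf6.

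Genes that work with the myogenic regulatory factors were taken from lists of known partners, regulators and targets and described in the same way, by covered length in bp. Their windows can also take in peaks of neighbouring genes. E proteins are the dimer partners. Of Tcf3, Tcf4 and Tcf12, all were covered in every library, and Tcf4 was the one whose stages did not overlap, 1 of 3 beside 39.2% of genes with higher coverage in all cycling libraries. After division by the library median none of the 3 was higher in all cycling libraries and 1 in all day 2 libraries, beside 15.5% and 7.37% of genes. Tcf4 had 22149 ± 1900 bp in cycling cells (SD, n = 3) and 17752 ± 2208 bp at day 2 (n = 4), but its stages overlapped after division by the library median, and the difference was slightly positive in percentiles (0.0434). Tcf3 and Tcf4 had PSME3 peaks in the pooled list, of up to 4.27-fold and 2.76-fold, and Tcf3 also in 2 of 3 replicates. That is 2 of 3 genes, beside 24.8% of all genes and 38.5% of those with pooled H3K4me3.

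The inhibitors hold E proteins away from the myogenic factors or repress their targets. Of 12 listed, 7 had higher coverage in all cycling than in all day 2 libraries and none the reverse, beside 39.2% and 1.01% over all genes with a peak. After division by the library median these counts were 1 and 2, beside 15.5% and 7.37% of genes, so the first rests on the scale. With a window of 1 kb the count of 7 was 4, and on the gene span alone it was 3. Without day 2 fresh native, 2 inhibitors were higher in all day 2 libraries, beside 2.57% of genes. With frozen day 2 libraries alone 2 were as well, beside 3.66%. Msc encodes musculin, a repressor of the same protein family. It had 4114, 4540 and 4531 bp in cycling replicates 1 to 3 and 1232 to 1896 bp at day 2. The means at Bhlhe41, another such repressor, were 9572 ± 1997 bp and 6979 ± 400 bp, and at Id3, which lacks the DNA-binding part, 8629 ± 784 bp and 6206 ± 1041 bp (SD, n = 3 and 4). At Id3 the difference was -64.2 bp with a window of 1 kb and 0 bp on the gene span, both nearly or wholly under peaks in each stage. After division by the library median the stages overlapped at Bhlhe41 and Id3 (exact permutation p = 0.229 and 0.114), and in percentiles too. At Bhlhe41 they also overlapped with windows of 10 and 50 kb (exact permutation p = 0.171 in each). PSME3 peaks of the pooled list lay at 6 of the 12, Id2, Id3, Id4, Hey1, Hes1 and Bhlhe41, each of them also found in 1 replicate. Over all protein-coding genes the pooled share was 24.8%, or 38.5% of those with a pooled H3K4me3 peak, and 18.3% had a peak in at least 1 replicate. Their highest fold enrichments were 2.69 to 3.27.

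The upstream factors drive or maintain expression of Myf5 and Myod1 in muscle precursors. Of 10, 3 had higher coverage in all cycling libraries and none in all day 2 libraries, beside 39.2% and 1.01% over all genes. With 1 library left out the count of 3 ranged from 3 to 6. It was 6 without day 2 frozen native, beside 43.0% of genes, and 5 without cycling replicate 1, beside 53.6%. After division by the library median the counts were 2 and 2, beside 15.5% and 7.37%. Pax3, a paired-box factor of muscle precursors, had 1814, 2236 and 1584 bp in cycling replicates and 775 to 927 bp at day 2. The homeobox gene Meox2 had 992, 388 and 818 bp in cycling replicates and no peak in any day 2 library. The stages overlapped at Pax3 in percentiles (exact permutation p = 0.114) and at Meox2 with q-values of at most 0.01 (p = 0.286). A pooled PSME3 peak lay at 4 of the 10, beside 24.8% of all genes and 38.5% of those with pooled H3K4me3, among them the paired-box gene Pax7 (2.76-fold) and the homeobox gene Pitx3 (3.12-fold), neither of which had one in a replicate list.

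Among 10 cofactors, none had stages that did not overlap, beside 39.2% of genes higher in all cycling libraries and 1.01% in all day 2 libraries. After division by the library median 5 were higher in all day 2 libraries, beside 7.37% of genes, and none in all cycling libraries, beside 15.5%. The count higher in all cycling libraries was 1 with a window of 10 kb and 2 with 50 kb, beside 40.6% and 46.7% of genes. It was 2 at a q-value of at most 0.01 and 3 with native day 2 libraries alone, beside 41.9% and 62.4%. Without cycling replicate 1 or day 2 frozen crosslinked it was 2, beside 53.6% and 50.2%. The count higher in all day 2 libraries was 2 without day 2 fresh native, beside 2.57%. It was 1 without cycling replicate 2 or 3, beside 1.91% and 1.19%. PSME3 had pooled peaks at 5 of the 10, beside 24.8% of all genes and 38.5% of those with pooled H3K4me3. They were Carm1, an arginine methyltransferase (5.89-fold), Srf, serum response factor (4.52-fold), Mef2d, a MADS-box partner of myogenic factors (3.08-fold), Ep300, an acetyltransferase (2.58-fold), and Smarcd3, a subunit of the SWI/SNF remodeller (2.54-fold). Srf also had a PSME3 peak in 2 day 2 lists, and Carm1 and Ep300 in 1 each, 3 of 10 beside 1.15% of all genes with one in at least 1 day 2 list.

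The targets and muscle differentiation genes include parts of the contractile apparatus, the synapse and the fusion machinery, and inhibitors of the cell cycle. Of 24, 12 had higher coverage in all day 2 than in all cycling libraries and none the reverse, beside 1.01% and 39.2% over all genes. The median difference of the 23 with a peak in any library was 1942 bp, beside -654 bp over all such genes. After division by the library median 17 were higher in all day 2 libraries, beside 7.37% of genes, and in percentiles 18, beside 13.9%. With windows of 10 and 50 kb the count of 12 was 9 and 5, beside 0.971% and 0.576% of genes, and with 50 kb 3 were higher in all cycling libraries, beside 46.7%. Like Myog, 6 of the 24 had no peak in the cycling libraries and one in every day 2 library, beside 0.221% over all genes with a peak. Myl1, a myosin light chain, had 8300 and 9186 bp in the frozen native and crosslinked libraries and 3937 and 7778 bp in the fresh ones. The means at Myh3, embryonic myosin heavy chain, and Acta1, skeletal muscle actin, were 4302 ± 696 bp and 4251 ± 1792 bp (SD, n = 4). In each of these 3 genes, as at Myog, the 4 day 2 libraries lay above cycling libraries at 0.

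Of these 24 genes, 4 had a pooled PSME3 peak, Chrna1, Mymx, Mylpf and Hspb2, beside 24.8% over all genes. At Mymx, which encodes the fusion peptide myomixer, and at Mylpf, a fast myosin light chain, the cycling replicates each held a PSME3 peak (3 of 3). At Chrna1, an acetylcholine receptor subunit, and Hspb2, a small heat shock protein, 1 of 3 did. No day 2 list had one at any of the 24, beside 1.15% of all genes with a peak in at least 1 day 2 list.

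**Figure D4:**
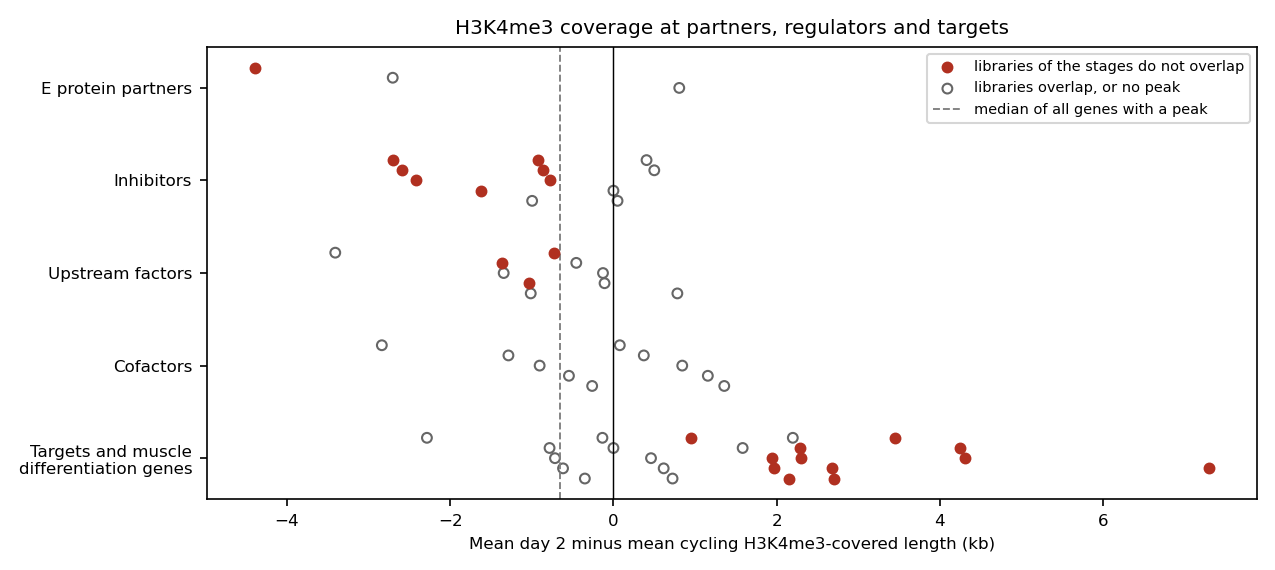
Mean day 2 minus mean cycling H3K4me3 covered length, in kb, for each gene of the 5 lists; points are spread vertically for legibility. Red points are genes whose 3 cycling and 4 day 2 libraries do not overlap, open points those that overlap or have no peak, and the dashed line is the median of all 14937 genes. The 12 red points at the right of 0 are all targets and muscle differentiation genes, while the red points of the inhibitors lie at the left, a count that falls from 7 to 1 after division by the library median.

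The genes whose H3K4me3 coverage was most like each factor's were found by distance over the 7 libraries in within-library percentiles. The libraries share cells, antibody and background regions, so this is a description. For Myog they were Adora1 (distance 12.83), Smyd1 (14.96) and Trim72 (19.46), all of them at 0 bp in cycling cells, with day 2 means of 2349, 2707 and 2033 bp. Adora1, an adenosine receptor gene, overlaps Mybph on the same chromosome as Myog, so its window takes in the Mybph peaks. Myf5 was closest to Ccdc6 (1.51), Dusp6 (1.6) and Klf6 (1.64), and Myf6 to Sos2 (1.74), Kif23 (1.78) and Ccnb1 (2.1). Genes near Myod1 were less close than those, among them Pde3b (5.07) and Rfx3 (5.73).

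As a check of the label, H3K4me3 peaks were found at 5 or 6 of 8 skeletal muscle markers in the cycling libraries and at 7 of 8 in each day 2 library. The summed covered length of these 8 was 21003 to 35639 bp and 25605 to 37348 bp. Cav3 had no peak in any library and Ckm had none in cycling cells. Des, Chrna1, Mymk, Mymx and Ckm are also among the targets above, so these markers are not separate from that list. Over all protein-coding genes, 61.5% to 66.2% had a peak in a cycling library and 57.3% to 60.3% in a day 2 library. The markers of other cell types were mixed. At most 1 of 5 blood markers, 2 of 4 endothelial and 2 of 4 hepatocyte markers had a peak in a library. Adipocyte markers had 3 of 5 in every library, and cardiac and neuronal markers 2 or 3 of 5. Markers of pluripotent cells had 3 of 4 in 6 of the 7 libraries and 1 of 4 in the fresh native one. The cardiac list holds Tnnt2, which is also among the muscle differentiation genes above and had 2585 to 10021 bp in every library. The summed covered length was higher in all cycling than in all day 2 libraries for 5 of the lists of other cell types. It was 9781 to 12763 bp and 5535 to 7154 bp for adipocyte, 3991 to 4339 bp and 251 to 1835 bp for pluripotent, and 7170 to 11680 bp and 1984 to 6103 bp for neuronal markers. For endothelial markers it was 1079 to 6546 bp and 0 to 346 bp, and for hepatocyte markers 404 to 929 bp and 0 bp. Single genes show that order in 39.2% of cases. The fibroblast sum was 12256 to 13655 bp in cycling cells and 10735 to 16997 bp at day 2, above all cycling libraries in 3 of the 4. H3K4me3 peaks at these lists therefore do not set muscle apart from every other cell type. Fibroblast markers had 3 or 4 of 5 in cycling cells and 4 of 5 at day 2, with 0 at Thy1 throughout. Their part in the values above was not tested.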

How the data were processed

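CUT&RUN libraries of C2C12 cells were trimmed by the authors with Trim Galore, aligned with Bowtie2 and passed to MACS2 for peak calling, on mm10 per the labels; tool versions and the control library are not given in the sources used here. Each of the 16 deposited lists (14 libraries and 2 pooled cycling lists) gives peak positions, the fold enrichment (a ratio over background) and the −log10 p-values and q-values. All q-values lie under 0.1. Read totals are not in the lists. Depth is therefore unknown, and peaks of a deeper library can pass at weaker sites. The 7 IgG libraries were not analysed here.

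Gene spans came from RefSeq GRCm38.p6, whose table gives no strand; strands and promoters of Myog and Myf5 came from the RefSeq promoter table, and those of Myod1 and Myf6 are not analysed here. Positions are 1-based. Covered length was summed within 5 kb of each span in Python 3.11.15 (numpy 2.4.6, pandas 2.3.3, scipy 1.17.1), and the functions were tested on simulated data. Means were compared by a two-sided exact permutation test (35 permutations, smallest p 0.0571) with Benjamini-Hochberg adjustment over protein-coding genes with a peak. Replicates are the study's biological replicates of cycling cells; each day 2 preparation is 1 library.

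The genes, gene lists and tests were chosen with earlier results of these data known. Genes named from a list were all those with a pooled PSME3 peak where 6 or fewer, and the up to 3 with the largest H3K4me3 difference whose stages did not overlap; genes most like a factor were the 3 nearest in percentiles. Some genes that this rule selects are not reported here. Alternatives were other windows and q-value thresholds, the widest peak, joined peaks, scaling by the library median or percentile, each library left out, subsets of preparations, and all genes as background.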

Additional observations from a re-analysis of the deposited data

Results flagged for a closer look

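The effect of crosslinking on H3K4me3 covered length went one way in fresh and the other way in frozen day 2 cells at all 4 genes, with 1 library in each preparation, so the difference was not tested. Opposite signs were found at 29.6% of the 14937 genes with a peak, and Myf5 and Myf6 share peaks. The median covered length over these genes was 2054 bp (native) and 2601 bp (crosslinked) in fresh cells and 2586 and 2768 bp in frozen cells. Crosslinked minus native covered length at Myog was 1942 bp in fresh cells and -354 bp in frozen cells. At Myf5 it was 1171 bp in fresh and -543 bp in frozen cells, and at Myf6 592 and -271 bp. At Myod1 the signs were the other way round, -111 bp in fresh and 323 bp in frozen cells, as at 3.07% of genes, against 26.6% for the order seen at the other 3. The fresh native library has the lowest value of the 4 preparations at Myog, Myf5 and Myf6.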

How the results depend on the processing

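No paired analysis was possible because the day 2 libraries carry no replicate numbers to match to the cycling ones, and PSME3 at these genes gave no test. The lists hold no depth, so a gene without a peak is not shown to lack the mark, and 3 against 4 libraries cannot reach p under 0.05. The mean difference kept its sign at Myog under every alternative run. It turned positive at Myod1 (0.0047) and Myf5 (0.234) after division by the library median, and in percentiles at Myod1 (1.74), Myf5 (2.27) and Myf6 (0.199); on the gene span alone, an alternative chosen after seeing the data, it was 2.08 bp at Myf5. These scalings take out the library-wide shift: genes higher in all cycling libraries went from 39.2% to 15.5% and 9.31%, and genes higher in all day 2 libraries from 1.01% to 7.37% and 13.9%. Of the genes named from lists, Tcf4 turned positive in percentiles (0.0434).

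Of the 4 factors, 1 (Myf6) was higher in all cycling libraries. That count was 2 with a window of 50 kb (with Myf5, beside 46.7% of genes) or native day 2 libraries alone (with Myod1, beside 62.4%), and 0 by the widest peak, after division by the library median and in percentiles. With 1 library left out it ranged from 1 to 2: it was 2 without cycling replicate 1 or day 2 frozen crosslinked (with Myod1, beside 53.6% and 50.2%) and without day 2 frozen native (with Myf5, beside 43.0%). The count higher in all day 2 libraries was 1 (Myog), and 0 at a q-value of at most 0.01, where the fresh native peaks at Myog are dropped. Cycling libraries with an H3K4me3 peak near Myog numbered 1 within 10 kb and 2 within 50 kb. Lists with a PSME3 peak near Myod1 numbered 2 within 50 kb and 0 at a q-value of at most 0.01. The distance to the nearest PSME3 peak is given in the report as a value.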
